A study of Mus musculus with 6 samples.

Results

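The beta-crystallins are the 6 genes Cryba1, Cryba2, Cryba4, Crybb1, Crybb2 and Crybb3, taken by symbol from the 24147 gene rows of the deposited count tables. All 6 passed the filter on low counts. RNA was sequenced from the lens capsule and the lens epithelial cells attached to it in wild type C57BL/6 mice 2 months old, after the lens fiber cells had been removed through an incision in the cornea as a model of cataract surgery. The 0 h group (3 libraries) was collected immediately, and the 24 h group (3 libraries) a day on. Both groups had the operation, so an unoperated lens was not part of the comparison. How many mice make up each library is unknown. The comparison asks how the remaining epithelial cells respond to the operation over 24 h.

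Beta-crystallins are structural proteins of the lens. Each has 2 similar domains built from Greek key motifs, and the proteins join as homo- and hetero-oligomers that, packed densely with the alpha- and gamma-crystallins, keep the lens clear and refractive. The acidic members carry an A in the name and the basic members a B. Fiber cells hold most of the protein, while epithelial cells are known to make some members at lower levels. Alpha-crystallins are small heat shock proteins, and most gamma-crystallins are made in fiber cells.

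The acidic genes lie on 3 chromosomes, and those of the basic group lie together with Cryba4 on chromosome 5. The deposited tables (mm10) place Cryba1 at chr11:77718732-77725293, Cryba2 at chr1:74889934-74893143, Cryba4 at chr5:112246533-112252502, Crybb1 at chr5:112255821-112269582, Crybb2 at chr5:113058265-113068766 and Crybb3 at chr5:113075839-113081584. Promoter windows of 300 bases (250 before and 50 from the annotated start, RefSeq on GRCm38.p6) are shown because transcription factors with known sites in crystallin promoters were measured in the same libraries. The windows are chr11:77725244-77725543 (minus strand), chr1:74893094-74893393 (minus), chr5:112252469-112252768 (minus), chr5:112255570-112255869 (plus) and chr5:113081535-113081834 (minus). Capitals mark 3 motifs on either strand. TATAAA is the TATA box. The core of each arm of the large MAF element is TGCTGA. The motif of SOX proteins is ACAAAG. On the opposite strand a match appears as its reverse complement.
Cryba1: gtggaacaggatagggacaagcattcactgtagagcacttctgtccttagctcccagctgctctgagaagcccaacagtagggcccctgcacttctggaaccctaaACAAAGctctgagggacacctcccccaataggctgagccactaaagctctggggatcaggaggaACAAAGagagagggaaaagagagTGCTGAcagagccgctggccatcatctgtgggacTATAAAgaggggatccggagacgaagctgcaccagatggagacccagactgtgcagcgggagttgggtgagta
Cryba2: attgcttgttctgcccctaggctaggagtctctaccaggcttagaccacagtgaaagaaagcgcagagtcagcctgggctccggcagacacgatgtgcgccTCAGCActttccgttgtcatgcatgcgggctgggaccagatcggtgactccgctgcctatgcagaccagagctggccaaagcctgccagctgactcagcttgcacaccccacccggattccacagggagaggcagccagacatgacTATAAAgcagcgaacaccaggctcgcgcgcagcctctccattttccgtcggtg
Cryba4: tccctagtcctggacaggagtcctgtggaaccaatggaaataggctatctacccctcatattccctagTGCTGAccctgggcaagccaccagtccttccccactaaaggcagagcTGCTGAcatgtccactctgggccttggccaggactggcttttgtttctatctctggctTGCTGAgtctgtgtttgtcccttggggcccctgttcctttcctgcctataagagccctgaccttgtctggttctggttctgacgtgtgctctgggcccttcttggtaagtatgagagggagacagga
Crybb1: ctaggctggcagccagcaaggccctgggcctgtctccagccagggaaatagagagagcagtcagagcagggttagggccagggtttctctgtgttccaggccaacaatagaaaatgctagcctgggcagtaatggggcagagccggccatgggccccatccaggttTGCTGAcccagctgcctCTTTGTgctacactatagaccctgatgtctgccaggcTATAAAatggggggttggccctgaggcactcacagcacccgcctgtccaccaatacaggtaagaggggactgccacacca
Crybb3: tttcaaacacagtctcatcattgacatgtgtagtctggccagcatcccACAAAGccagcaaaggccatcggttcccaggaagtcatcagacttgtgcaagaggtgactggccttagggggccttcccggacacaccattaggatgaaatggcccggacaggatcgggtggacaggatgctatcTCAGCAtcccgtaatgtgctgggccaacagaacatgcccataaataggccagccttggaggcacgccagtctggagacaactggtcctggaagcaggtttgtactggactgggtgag

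In these 5 windows the start lay within 16 bases of the 5′ end in the deposited tables. The Crybb2 window lay 1351 bases from that end and is not shown. TGCTGA was found in 5 of the 6 members' windows, the Crybb2 window being the one without it, against 19.5% of 32851 promoter windows of the same length. Those windows were not filtered by their distance from a deposited end. Cryba4 held 3 copies, at bases -182, -135 and -77 from the start site, and the other 4 shown held 1 each. TATAAA was found in 3 of the 6 (13.6% of all windows) and ACAAAG in 3 of the 6 (18.7%). The heat shock core GAANNTTC was found in 0 of the 6, against 7.86% of all windows. These matches describe the letters only.

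**Figure D1:**
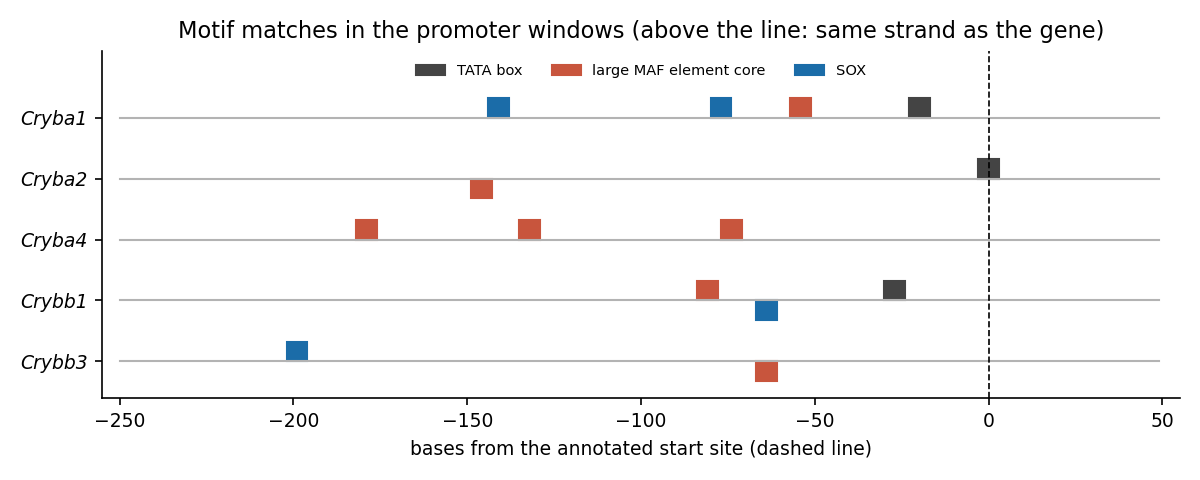
Positions of motif matches in the promoter windows of 5 beta-crystallins (x axis, bases from the annotated start site; boxes above a line lie on the strand of the gene, boxes below on the other strand). Each of the 5 windows drawn holds the large MAF element core, and Cryba4 holds 3 copies of it.

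Of the 6 beta-crystallins, 5 were lower at 24 h and Crybb3 did not pass the test. The falls of the 5 lay between 2.32-fold (Crybb2) and 3.57-fold (Cryba4). In edgeR's quasi-likelihood test with Benjamini-Hochberg adjustment over 13956 genes, 5 of 6 members were called lower and 0 higher, against 13.0% of all genes called lower, 15.2% called higher and 28.2% called in either direction. Every 24 h library lay below every 0 h library for 5 of 6 members, and for 21.8% of all genes. The median log2 fold change was -1.50 over the 6 members, -0.03 over all genes and -0.68 over the 62 genes whose mean level was at or above that of the lowest member. In bulk tissue, fewer cells of a type and less RNA per cell cannot be told apart.

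The libraries held 8069314 to 10862573 counts. Levels below are CPM, counts relative to library size, scaled by the TMM method, for replicates 1, 2 and 3 in that order, and the fold changes are 24 h over 0 h. Replicates are biological per the series' design text, so the spread includes differences between animals or pools.

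Of the acidic members, Cryba1, which makes the βA3 and βA1 proteins from alternative start codons of one mRNA, had 19666, 7384 and 12580 CPM at 0 h and 3836, 4141 and 4663 CPM at 24 h. The 3 libraries at 24 h lay close together and below all at 0 h. The log2 fold change was -1.65 ± 0.36 (SE, n = 3 per group, edgeR adjusted p = 0.0100), a 3.14-fold fall with a 95% interval of 1.78 to 5.53. Cryba2 had 5923, 3400 and 4050 CPM at 0 h and 1518, 1772 and 1549 CPM at 24 h. Its groups did not overlap either, and its log2 fold change was -1.47 ± 0.25 (SE, edgeR adjusted p = 0.00340). Cryba2 was the member with the smallest standard error. Cryba4 had 2836, 1049 and 1427 CPM at 0 h and 535, 550 and 401 CPM at 24 h. It fell 3.57-fold, with a 95% interval of 2.03 to 6.28 (log2 fold change -1.84 ± 0.36, SE, edgeR adjusted p = 0.00595). The lowest library at 0 h, replicate 2, was still above the highest at 24 h.

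Of the basic members, Crybb1, whose protein has long terminal extensions, had 2489, 960 and 1319 CPM at 0 h and 540, 538 and 562 CPM at 24 h. Its 24 h libraries varied by a coefficient of variation of 2.49%, against 50.3% at 0 h. The log2 fold change was -1.54 ± 0.33 (SE, edgeR adjusted p = 0.00885). Crybb2, the most abundant member and one also known in the retina, had 31332, 18796 and 20453 CPM at 0 h and 9516, 11467 and 9462 CPM at 24 h. The groups did not overlap, with replicate 1 standing above the other two at 0 h. The log2 fold change was -1.21 ± 0.29 (SE, edgeR adjusted p = 0.0160), a 2.32-fold fall with a 95% interval of 1.46 to 3.69. This call was lost without 0 h replicate 1 (log2 fold change -0.92, edgeR adjusted p = 0.0575) and without 24 h replicate 1 (-1.13, 0.0854). It was also lost when the same estimate was tested against a 1.5-fold change (edgeR adjusted p = 0.0805).

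Crybb3 had 2199, 852 and 1482 CPM at 0 h and 873, 970 and 1245 CPM at 24 h. The groups overlapped: 0 h replicate 2 was the lowest of all 6 libraries. The log2 fold change was -0.55 ± 0.33 (SE, edgeR adjusted p = 0.245). The 95% interval of the ratio of 0 h to 24 h ran from 0.878 to 2.45, which includes a fall of the size seen for Crybb2. Without 0 h replicate 2 the log2 fold change was -0.84 (edgeR adjusted p = 0.0507), and without 0 h replicate 1 it was -0.15 (0.755).

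**Figure D2:**
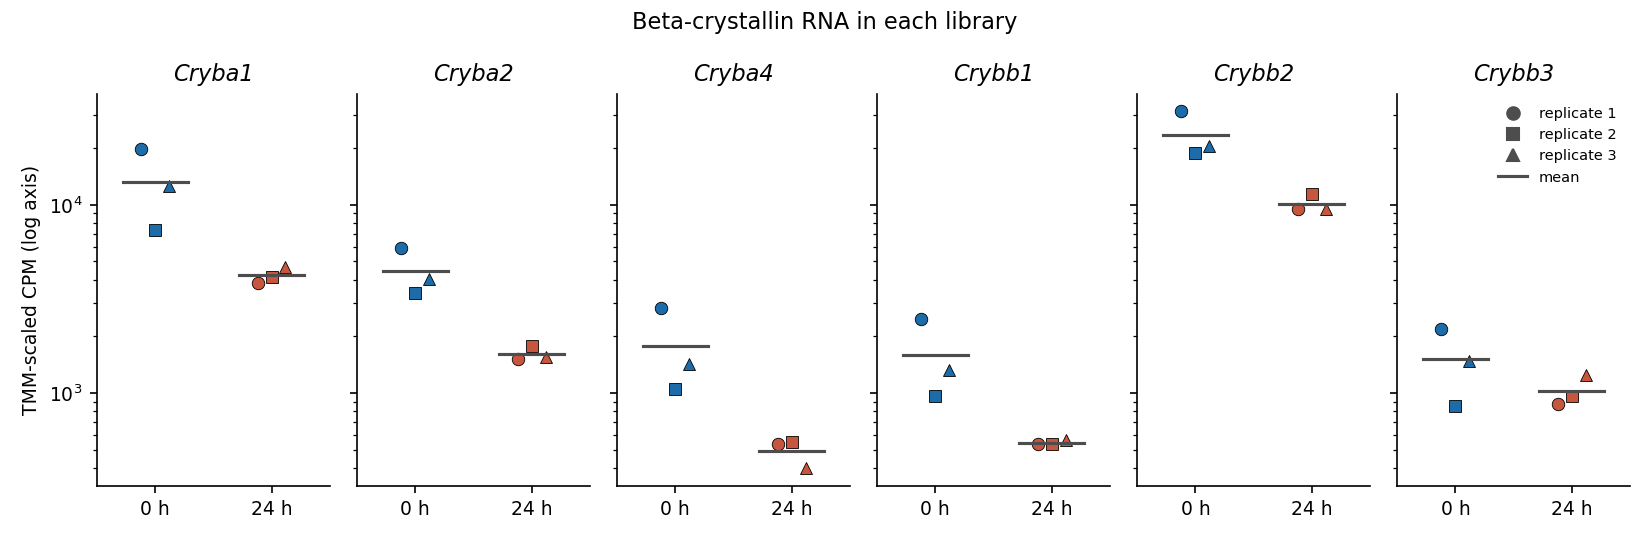
TMM-scaled CPM of each beta-crystallin (y axis, log scale) in the 3 libraries at 0 h and the 3 at 24 h; symbols mark the replicate and bars the mean. The groups are apart for 5 genes and overlap for Crybb3, and replicate 1 is highest at 0 h for all 6.

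At 0 h all 6 members had the same order of libraries, replicate 1 highest, then 3, then 2. The highest library exceeded the lowest by 1.67-fold (Crybb2) to 2.70-fold (Cryba4). The median coefficient of variation of the 6 was 45.6% at 0 h and 10.6% at 24 h, against 16.6% and 17.9% over all genes. Leaving out 0 h replicate 1 brought the log2 fold changes of the 5 called members to between -1.29 (Cryba4) and -0.92 (Crybb2). In that fit 4 of the 5 kept an adjusted p below 0.05 in edgeR, against 9.04% of all genes called lower.

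**Figure D3:**
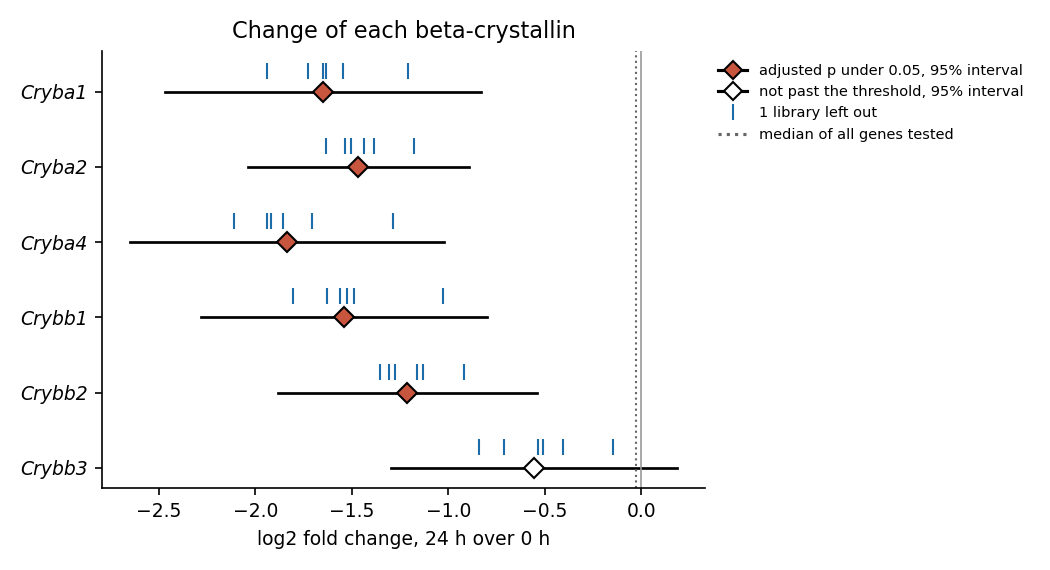
Log2 fold change of each beta-crystallin, 24 h over 0 h (x axis); diamonds give the estimate, lines the 95% interval, ticks the estimates with 1 library left out, and the dotted line the median of all genes (-0.03). All estimates lie below 0, and the interval of Crybb3 crosses 0.

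Reads of Cryga to Crygf, gamma-crystallins made chiefly in fiber cells, moved with this spread. They made up 0.215%, 0.0116% and 0.0291% of the counts in 0 h replicates 1, 2 and 3, and 0.0800%, 0.00205% and 0.00305% at 24 h. Replicate 1 was highest at both times, and at 0 h the order of the libraries was that of the beta-crystallins. At 24 h it was not: the library richest in these reads had the lowest Cryba1, Cryba2 and Crybb3. Without both replicate 1 libraries, 3 of the 6 members were called lower, Cryba2, Cryba4 and Crybb1, against 5.82% of all genes. In that fit Cryba1 had a log2 fold change of -1.14 (edgeR adjusted p = 0.108) and Crybb2 -0.87 (0.193). Another fit took as covariate the log2 summed level of Crygb to Cryge, as Cryga and Crygf did not pass the filter. In it Cryba2 alone of the 6 was called (log2 fold change -1.31, edgeR adjusted p = 0.0384), against 7.85% of all genes called lower. There Cryba4 had -1.38 (0.0538), Crybb1 -1.14 (0.0848), Cryba1 -1.33 (0.117) and Crybb2 -1.07 (0.150). Both fits were added after the values had been seen. The mean share of Cryga to Crygf was itself lower at 24 h (0.0284%) than at 0 h (0.0851%). The covariate is thus partly tied to time, and with 6 libraries the fit cannot separate them. What part fiber cell RNA had in the falls was not tested.

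Other crystallins were measured beside them. The beta-crystallins together took 5.92%, 3.44% and 3.88% of a library's counts at 0 h and 1.63%, 2.12% and 1.83% at 24 h. The lowest share at 0 h was above the highest at 24 h. Alpha-crystallin reads went from a mean of 10.9% to 5.94%, and Crygs, the gamma-crystallin also made outside the fiber core, from 0.644% to 0.209%. Among single genes Cryab was called lower (log2 fold change -1.13) and Cryaa was not (-0.93, edgeR adjusted p = 0.0746). Of 6 gamma-crystallins tested, 1 was called lower, Crygs (-1.72), and the median of the 6 was -1.66.

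**Figure D4:**
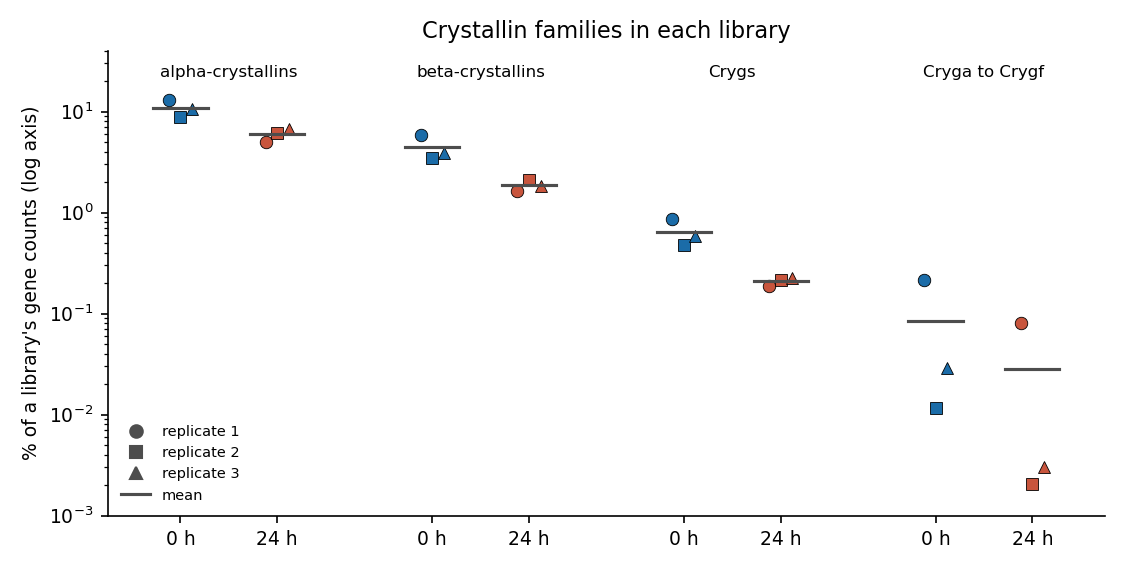
Share of each library's gene counts taken by the alpha-crystallins, the beta-crystallins, Crygs and Cryga to Crygf (y axis, percent, log scale), by time; symbols mark the replicate and bars the mean. The beta-crystallins drop from between 3.44% and 5.92% to between 1.63% and 2.12%, and replicate 1 stands above the others for Cryga to Crygf at both times.

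Levels between genes are compared per length, by the deposited RPKM. Crybb2 was highest, with a mean of 31276 ± 7366 RPKM at 0 h and 14470 ± 2479 at 24 h (SD, n = 3). It ranked 2 or 3 of all genes in every library. Cryba1 followed with 18405 ± 7551 and 6350 ± 806 RPKM, and Cryba2 with 5950 ± 1399 and 2311 ± 337 RPKM. The order Crybb2, Cryba1, Cryba2 held in all 6 libraries. The lower 3 lay close at 0 h: Cryba4 had 2242 ± 1070, Crybb3 1737 ± 676 and Crybb1 1735 ± 776 RPKM, with overlapping ranges. Within each 0 h library Cryba4 was above Crybb1 (ratios of 1.32, 1.27 and 1.26) and above Crybb3 (1.42, 1.36 and 1.06). At 24 h Crybb3 had 1280 ± 258 RPKM and stood above Cryba4 (678 ± 127) and Crybb1 (644 ± 39.3) in each of the 3 libraries. The ratio of Crybb3 to Crybb1 was 0.932, 0.935 and 1.18 at 0 h and 1.71, 1.90 and 2.33 at 24 h. The ratio of Crybb3 to Cryba1 varied little within a time, 0.0949 ± 0.00247 at 0 h and 0.200 ± 0.0173 at 24 h (SD, n = 3). Among the 0 h libraries Crybb3 spanned 2.58-fold and Cryba1 2.66-fold. Of all member pairs, this ratio had the smallest spread for its size at 0 h. The ratios of Crybb3 to Crybb2 (0.0548 ± 0.0132) and to Cryba2 (0.286 ± 0.0593) varied more at 0 h (SD, n = 3).

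The makeup of the beta-crystallin reads was compared as shares. Crybb3 took 3.41%, 2.63% and 3.59% of them at 0 h and 5.19%, 4.99% and 6.96% at 24 h, with no overlap. Cryba2 had a mean of 9.82% at 0 h and 8.93% at 24 h, and Cryba4 3.70% and 2.75%, both without overlap. The exact two-sided permutation test gave p = 0.1 for each of these 3 genes, the smallest that 3 against 3 libraries allow, and 0.2 after adjustment over the 6 members. The shares of Cryba1 (27.9% and 23.4%), Crybb2 (52.0% and 56.2%) and Crybb1 (3.34% and 3.04%) overlapped between the times, with exact permutation p of 0.3, 0.3 and 0.5. With 3 against 3 libraries this exact test could not reach the threshold of 0.05, so it does not decide whether a share changed.

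**Figure D5:**
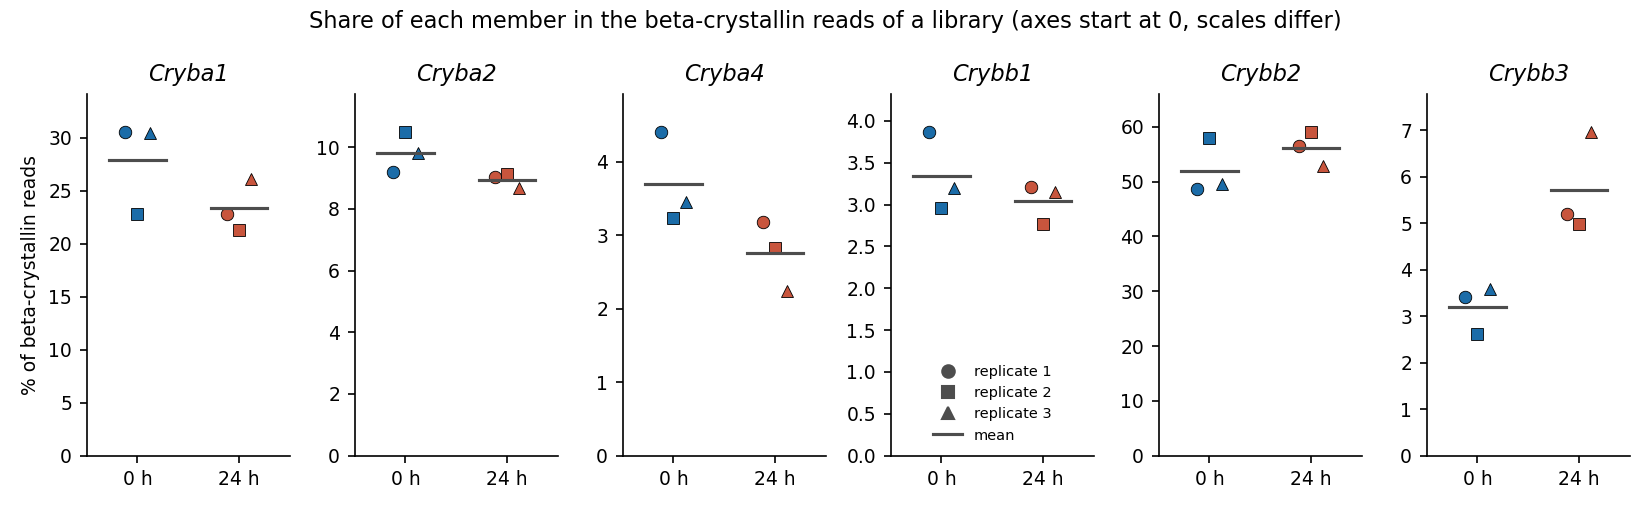
Share of each member in the beta-crystallin reads of a library (y axis, percent, from 0, with a scale for each gene) at 0 h and 24 h; symbols mark the replicate and bars the mean. Crybb3 lies between 2.63% and 3.59% at 0 h and between 4.99% and 6.96% at 24 h.

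The members are similar in sequence but could be told apart in counting only as far as reads covered their differences. Coding sequences of the 15 pairs were 60.3% to 69.5% identical. The longest run shared by 2 members' transcripts was 20 bases, so any longer read from these transcripts covers a difference. Cryba4 and Crybb1 lie 3319 bases apart on chromosome 5, on opposite strands, and Crybb2 and Crybb3 7073 bases apart on the same strand. The log2 fold changes were -1.84 and -1.54 in the first pair and -1.21 and -0.55 in the second. The nearest genes outside the family did not pass the test where they could be tested: Nufip2 (log2 fold change -0.00) and Myo18a (-0.22) beside Cryba1, Miat (-1.22) and Tpst2 (0.34) beside Cryba4 and Crybb1, and Adrbk2 (-0.60) and 2900026A02Rik (0.31) beside Crybb2 and Crybb3. Fev and Mir375, beside Cryba2, had too few counts.

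Each member's profile was compared with the mean of the others over the 6 libraries. Pearson's r was at most 0.996 (Crybb1) and at least 0.975 (Crybb2) for 5 members and 0.762 for Crybb3. The 6 other genes most like the mean profile of the members were Zbtb5 (r = 0.997), Grifin (0.996), Kctd3 (0.994), Fabp5 (0.994), Rab11fip1 (0.993) and Dbnl (0.992). Grifin is a lens galectin and Fabp5 a fatty acid binding protein. These r values are descriptions: the 6 points fall in 2 times, and share the high 0 h replicate 1.

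Among other fiber cell genes, 9 of 12 tested were called lower and 0 higher, with a median log2 fold change of -1.56. Mip, the water channel of fiber cells, had a log2 fold change of -2.29. Of 24 transcription factors known to act on crystallin genes, 11 were called lower and 1 higher, with a median of -0.43. Prox1, which acts on beta-crystallin promoters, was lower (437 ± 64.2 CPM at 0 h and 219 ± 50.4 CPM at 24 h, SD, n = 3, edgeR adjusted p = 0.00835), while Pax6 had -0.49 and was not called (edgeR adjusted p = 0.0946). Maf, Sox1 and Sox2, named after their values had been seen because their motifs are shown above, were lower by edgeR, with log2 fold changes of -1.22, -0.73 and -0.57.

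Of 9 lens epithelial markers tested, 4 were called lower and 0 higher, with a median log2 fold change of -1.22. The 4, named after their values had been seen, were Npnt (-2.35), Slc38a3 (-1.63), Foxe3 (-1.55) and Fgfr3 (-1.55), while Gja1, a gap junction protein, had -0.14 and was not called. RNA of other eye cells was present. Photoreceptor markers summed to 2145 to 6710 CPM at 0 h and 1181 to 5319 CPM at 24 h, with 0 of 12 called. The highest sum was in replicate 2 at both times, the library with the lowest beta-crystallin share at 0 h (3.44%) and the highest at 24 h (2.12%). Pigment epithelium markers summed to 241 to 451 CPM and 145 to 1210 CPM (3 of 10 higher, 4 lower). Neutrophil markers rose in 5 of 5 tested, from at most 10.02 CPM summed to at least 70.7. Macrophage markers were called higher in 1 and lower in 2 of 9, and corneal epithelium markers higher in 2 of 3. Keratocyte and fibroblast markers were called higher in 2 of 3 and endothelial markers higher in 2 of 4. The summed levels of these lists at 24 h reached at most 140, 86.5, 148 and 41.9 CPM, in that order. The 2 keratocyte and fibroblast genes called were the collagens Col1a1 and Col3a1. Of the same list, Dcn was not called and Kera had 0 counts in all libraries, both named after their values had been seen. Red blood cell markers were at or near 0, with none tested. The part of these cells in the beta-crystallin values was not tested.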

How the data were processed

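RNA was measured in 3 libraries at 0 h and 3 at 24 h. Per the submitters' processing notes the build was mm10 and the tools included TopHat2 2.1.0, HTSeq 0.6.1p1, Trim Galore 0.4.4 and edgeR 3.16.5, with no roles named. The authors deposited raw counts per gene and RPKM values. In each table the deposited RPKM equals the count divided by gene length and total counts. Whether strand was used in counting is not stated by these sources.

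Counts were tested with edgeR 4.0.16 (TMM scaling, filterByExpr, quasi-likelihood test) in R 4.3.3, adjusted over 13956 genes with a threshold of 0.05. Standard errors are the log2 fold change over the root of F. Shares were tested with exact permutations (scipy 1.17.1), and sequences compared with Biopython 1.88. On data simulated for this comparison (13841 genes), 42% of genes raised and 46% of genes lowered by 1 on the log2 scale were recovered. At a change of 2 the values were 95.9% and 98.0%. Each of these changes was given to 49 or 50 genes, and all genes were drawn with a common biological coefficient of variation of 25.1%. The beta-crystallins had a median coefficient of variation of 45.6% at 0 h, so these rates do not carry over to them directly. Alternatives used limma 3.58.1 and DESeq2 1.42.0.

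The members and the 15 gene lists were chosen with earlier results of these data known. Named genes are the members, the 2 most abundant genes of a list, the 6 most like the members' mean profile and the nearest neighbours; some genes this rule names are not reported here. Text on other cell types gives lists by counts, with genes named only for the keratocyte and fibroblast list.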

Additional observations from a re-analysis of the deposited data

How the results depend on the processing

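All 6 beta-crystallins kept their direction in each of 16 alternatives, 14 planned and 2 added after seeing the data. The alternative against a 1.5-fold change used the main estimates, so its directions could not differ. Cryba2 was called in 16, Cryba4 and Crybb1 in 15, Cryba1 in 14, Crybb2 in 11 and Crybb3 in 0. Counts over all genes were 1817 lower and 2125 higher. Against a 1.5-fold change they were 629 and 1060. In the 2 added fits, without both replicate 1 libraries 824 genes were lower, 1325 higher and 3 members lower, and with the gamma-crystallin covariate 1095 genes and 1 member were lower. The cause was not tested. Leaving out 1 library gave 1041 to 1648 genes lower (7.26% to 11.5% of those tested), the fewest without 0 h replicate 3. It gave 1551 to 1897 genes higher and 4 to 5 members lower.

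Same-numbered libraries correlated in their deviations at 0.087, 0.215 and 0.397. Of the pairs with unlike numbers, 24 h replicate 1 with 0 h replicate 2 had 0.172, and the rest had -0.350 to -0.013. These values do not settle whether the numbers pair the samples. The labels state no pairing, so the main fit used none. With the replicate number as a block, 2174 genes were lower (15.6% of those tested), 2315 higher and 5 members lower.

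For the shares, a further edgeR fit was tried after the exact test had given the smallest p it can: each library was scaled to its summed beta-crystallin counts. There Crybb3 had a log2 change of 0.83 (adjusted p = 0.0257) and the other members -0.43 to 0.11 (adjusted p 0.261 to 0.738). In that fit 67.5% of all 13956 genes were called. The scaling treats the summed beta-crystallin counts as level, while their mean share of a library fell from 4.41% to 1.86%. Genes that did not fall with them are thus set higher, and the 67.5% does not measure how Crybb3 moved against the other members. Because the fit was tried after the exact test, its call of Crybb3 is given as a record. The exact test remains the reported one, though it could not reach the threshold and does not decide whether a share changed. With 3 libraries a group, depth is not what limits the members, each with at least 3794 counts in every library.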

Other observations

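Relatives of the beta/gamma-crystallin fold outside the lens proteins did not move as 1 group. Aim1, a large protein that carries the fold, had a log2 fold change of 1.85 ± 0.18 (SE, edgeR), while Crybg3 had -0.73 ± 0.14 (SE, edgeR), and both passed the test. Of 4 genes named crystallin that belong to other protein families, 2 were called lower, Cryz (-0.82) and Cryzl1 (-0.66), and 0 higher.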
